A study of Danio rerio with 6 samples.

Results

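The genes examined here encode 3 families of nuclear proteins that carry out or steer pre-mRNA splicing: the SR proteins, the heterogeneous nuclear ribonucleoproteins (hnRNPs), and the SF3A and SF3B subunits of the U2 small nuclear ribonucleoprotein. They were taken by name, as every gene whose symbol begins with srsf, hnrnp or hnrp, or with sf3a or sf3b and a digit. This gave 42 of 24789 genes, made up of 12 SR protein genes, 23 hnRNP genes and 7 SF3A or SF3B genes. Members whose gene carries no symbol in the name table (74.9% of gene IDs have one) could not be taken by this rule. Where 2 zebrafish genes share a human name in capitals, each is given with its Ensembl gene ID.

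SR proteins bind exonic enhancers through RNA recognition motifs and recruit the splicing machinery through a domain rich in arginine and serine. hnRNPs coat nascent transcripts and often oppose SR proteins at nearby sites, so that the balance of both families influences the use of many alternative exons. SF3A and SF3B hold the U2 particle on the branch site of every major-class intron. Quaking proteins are themselves sequence-specific RNA-binding proteins that regulate splicing, stability and translation.

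The study compared trunks of zebrafish (Danio rerio) embryos 24 to 26 h after fertilization, with head and yolk cut away. The 3 loss of function libraries came from qkia-/- embryos injected at the one-cell stage with 0.6 pmol of a morpholino (an antisense oligonucleotide) against qkic. The 3 control libraries came from siblings, qkia+/+ or qkia+/-, injected with a control morpholino. Both groups came from crosses of qkia+/- fish and were sorted by their morphology, and genotype and morpholino changed together, so the effects of the 2 cannot be told apart. The sources used here give no number of embryos per library.

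Each library gave 1 normalized read count per gene, which is a read count divided by a size factor of that library. The libraries held 38804265 to 44799398 reads counted on genes, as recovered from the values; this is more than the mean that the labels give per sample, so the depth is uncertain. In the mutated gene, qkia, loss of function replicates 1, 2 and 3 held 6, 7 and 3 reads, against 70, 83 and 58 in the controls. The gene qkic, against which the morpholino was directed, was not examined here. Of the marker lists used to check the tissue, skeletal muscle genes made up 1.18% to 1.19% in loss of function and 1.13% to 1.45% in controls, as a share of all gene values, and genes of head, brain and eye 0.000792% to 0.000960% in loss of function and 0.00117% to 0.00135% in controls. Loss of function libraries differed less among themselves (chi-square per degree of freedom 2.11 to 2.45) than control libraries did (7.90 to 14.2).

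Most of the 42 splicing factor genes changed by less than 1.5-fold, and so did most genes of similar abundance. All 42 passed the filter on low values, and 20 of them (47.6%) passed the test, 9 higher and 11 lower in loss of function, beside 41.9% of all 18917 genes tested, 21.9% higher and 20.0% lower. Among genes with a mean normalized read count of at least 1000, to which 39 of the 42 belonged, 60.5% passed, 39.7% higher and 20.7% lower. The share of members called therefore lies between these backgrounds and is not a result about the family. The test was limma on log2(value + 1), with p-values adjusted over all genes by the Benjamini-Hochberg method and a threshold of 0.05. The median log2 change of the members was 0.03, beside 0.00 for all genes, and the median size of the change was 0.13, beside 0.23 for all genes and 0.18 for genes averaging 1000 or more. Only hnrnph3 changed by 2-fold or more. Only hnrnph3 and hnrnph1 changed by 1.5-fold or more, that is 4.76% of members beside 12.1% of all genes. Both averaged under 1000. Of the 39 members averaging 1000 or more, 0 changed by 1.5-fold or more, beside 4.23% of all genes at that level. The groups did not overlap for 25 members (59.5%, beside 52.1% of all genes and 69.4% of genes averaging 1000 or more).

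The 22 members that did not pass the test had log2 changes between -0.11 and 0.14. For 21 of them the 95% interval of the change lay within -0.23 and 0.24, and for hnrnpa3, with normalized read counts of 238 to 302, it ran from -0.06 to 0.35. The balance of calls moved with quantile normalization and not with TMM scaling. After quantile normalization 4 members were called higher and 18 lower (18.2% of calls higher, against 45.0%), and the median log2 change of the members was -0.07. Over all 18917 genes that setting gave 3854 higher and 3735 lower (50.8% of calls higher, against 52.2%), with a median of 0.01. The 4 members still called higher were hnrnph1, srsf10b, SF3B5 and SF3B6. With TMM scaling the counts were 9 and 11, as without it. Without loss of function replicate 1, 5 members were called higher.

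**Figure D1:**
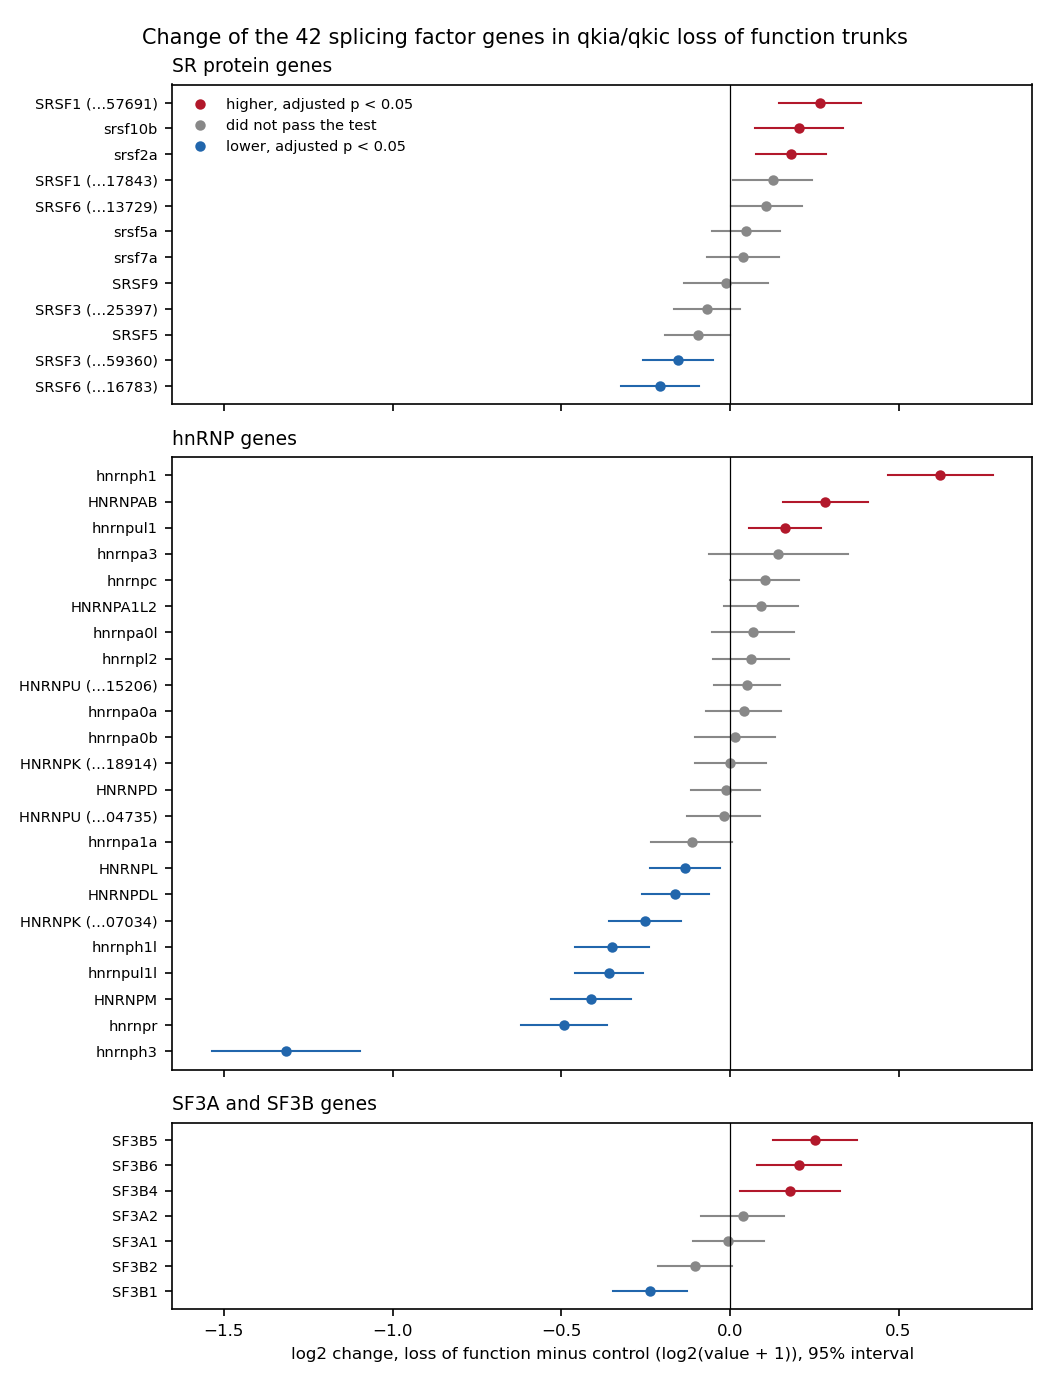
Log2 change of each of the 42 members, loss of function minus control on the log2(value + 1) scale, with its 95% interval from limma, in 3 panels by family and ordered by size. Most members lie between -0.25 and 0.25, with hnrnph3 (-1.32) and hnrnph1 (0.62) farthest from 0. Genes that share a name carry the last 5 digits of their ID.

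Of the SR protein genes, 3 of 12 rose, 2 fell and 7 did not pass the test, with changes from -0.21 to 0.27 (median 0.04). The share called was 41.7%, beside 41.9% of all genes and 60.5% of genes averaging 1000 or more, to which all 12 belonged. Of genes at that level 39.7% rose and 20.7% fell. The SR protein gene that rose the most was a copy of SRSF1, the founding SR protein, which promotes exon inclusion and 5′ splice site use. SRSF1 (ENSDARG00000057691) had normalized read counts of 19389.8, 19256 and 18778 in loss of function replicates 1, 2 and 3, against 14506, 16372 and 16904 in control replicates 1, 2 and 3. Every loss of function library lay above every control, and its mean was 1.20-fold higher (log2 change 0.27, SE 0.06, limma adjusted p = 0.00126). After quantile normalization its log2 change was 0.12, short of the threshold (limma adjusted p = 0.062).

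The gene srsf2a encodes an SR protein whose mammalian counterpart stays in nuclear speckles. Its normalized read counts were 10708, 10809 and 10640.3 in loss of function libraries, against 8957, 9636 and 9796 in controls, again without overlap (log2 change 0.18, SE 0.05, limma adjusted p = 0.00698). The gene srsf10b encodes the counterpart of a mammalian SR protein that turns into a general splicing repressor when dephosphorylated in heat shock. It had 2898, 2489.8 and 2477 in loss of function libraries, against 2169, 2325 and 2309.9 in controls, with loss of function replicate 1 the highest (log2 change 0.21, SE 0.06, limma adjusted p = 0.0128). Without that library its log2 change was 0.13 (limma adjusted p = 0.124). For srsf2a the log2 change after quantile normalization was 0.07 (limma adjusted p = 0.162). Without the variance trend neither srsf2a (limma adjusted p = 0.0585) nor srsf10b (0.101) passed.

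The SR protein genes that fell were copies of SRSF6 and SRSF3, which encode regulators of alternative exons. SRSF6 (ENSDARG00000016783) had normalized read counts of 6885, 7211 and 7337 in loss of function libraries, against 8109, 8903 and 7771 in controls, 1.16-fold lower without overlap (log2 change -0.21, SE 0.05, limma adjusted p = 0.00562). SRSF3 (ENSDARG00000059360) had 9013, 8913 and 8656 in loss of function libraries, against 9530.2, 10385 and 9688 in controls, 1.11-fold lower (log2 change -0.15, SE 0.05, limma adjusted p = 0.0183). The call for SRSF3 was lost without any 1 of the loss of function libraries or without control replicate 2, where its limma adjusted p lay between 0.0522 and 0.0988. Without the variance trend neither gene passed (limma adjusted p = 0.0696 for SRSF6 and 0.0913 for SRSF3).

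The SR protein gene with the highest mean normalized read count, not adjusted for transcript length, was srsf5a. It had 18462, 18507 and 18272 in loss of function libraries, against 17563, 18156 and 17731 in controls and missed the threshold (log2 change 0.05, SE 0.05, limma adjusted p = 0.447, 95% interval -0.05 to 0.15). After quantile normalization its log2 change was -0.11 and was called lower (limma adjusted p = 0.0283). The others that did not pass were SRSF5, srsf7a, SRSF9 and the remaining copies of SRSF1, SRSF3 and SRSF6, with changes from -0.10 to 0.13. After quantile normalization 1 SR protein gene was called higher and 5 lower (16.7% of calls higher, beside 50.8% over all genes).

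The hnRNP genes held the largest changes of the family. Of 23, 8 fell (34.8%, beside 20.0% of all genes), 3 rose (13.0%, beside 21.9%) and 12 did not pass the test, with log2 changes from -1.32 to 0.62 and a median of 0.00. The share called in either direction was 47.8%, beside 41.9% of all genes and 60.5% of genes averaging 1000 or more. Of genes at that level 20.7% fell and 39.7% rose. All hnRNP genes except hnrnph3, hnrnph1 and hnrnpa3 belonged to them. After quantile normalization 1 hnRNP gene was called higher and 11 lower (8.33% of calls higher, beside 50.8% over all genes). That setting has no count for genes averaging 1000 or more. The gene hnrnph3 encodes a protein of the hnRNP H and F group, which binds runs of guanosines near splice sites. Its normalized read counts were 171, 190.1 and 219.6 in loss of function replicates 1, 2 and 3, against 501, 513 and 431 in control replicates 1, 2 and 3. All 3 loss of function libraries lay far below the lowest control, and the means were 193 ± 24.7 in loss of function and 482 ± 44.3 in control trunks (SD, n = 3 in each group). This was 2.49-fold lower (log2 change -1.32, SE 0.10, limma adjusted p = 7.46e-08).

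The 2 further genes of the hnRNP H group moved in opposite directions. The gene hnrnph1 had 1179.6, 1163 and 1171 in loss of function libraries, against 742, 862 and 685 in controls, without overlap, and means of 1171 ± 8.23 in loss of function and 763 ± 90.5 in control trunks (SD, n = 3 each; log2 change 0.62, SE 0.07, limma adjusted p = 5.74e-06). The loss of function libraries were nearly equal, while the controls were more spread. Its copy hnrnph1l had 6074, 5816 and 5999 in loss of function libraries, against 7088, 7777 and 7953 in controls, 1.28-fold lower and without overlap (log2 change -0.35, SE 0.05, limma adjusted p = 5.01e-05). In a later zebrafish assembly, GRCz12tu, hnrnph1 overlaps RUFY1, a gene of endosome traffic, which rose as well, with 311, 309 and 299 in loss of function libraries, against 237, 218 and 234 in controls (log2 change 0.41, SE 0.09, limma adjusted p = 0.00135). The libraries did not keep the strand, and the sources used here do not say how reads in such overlaps were assigned, so the part of RUFY1 in the value of hnrnph1 was not tested.

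Next in size among the decreases were hnrnpr, HNRNPM and hnrnpul1l. The gene hnrnpr encodes an hnRNP that binds messenger RNAs in motor axons of the mouse. It had normalized read counts of 1408, 1435 and 1483 in loss of function libraries, against 1921, 2228 and 1948 in controls, with means of 1442 ± 37.8 in loss of function and 2032 ± 170.0 in control trunks (SD, n = 3 each; log2 change -0.49, SE 0.06, limma adjusted p = 8.88e-06). HNRNPM, whose mammalian protein binds GU-rich sequences and regulates exon skipping, had 10079, 10060.0 and 10133 in loss of function libraries, against 12575, 14740.1 and 13066 in controls. It was 1.33-fold lower (log2 change -0.41, SE 0.06, limma adjusted p = 2.31e-05), with loss of function libraries close together and control replicate 2 the highest. The gene hnrnpul1l, a copy of the hnRNP U-like gene, had 4431, 4446 and 4290.0 in loss of function libraries, against 5639.9, 5823 and 5432 in controls, 1.28-fold lower (log2 change -0.36, SE 0.05, limma adjusted p = 1.77e-05). The groups did not overlap for any of these 3 genes.

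The remaining decreases were small and are named here because they complete the calls, beyond the rule for named genes. The KH-domain gene HNRNPK (ENSDARG00000007034) fell by 0.25 on the log2 scale (limma adjusted p = 7.13e-04). HNRNPDL, whose protein is related to the AU-rich element binder hnRNP D, fell by 0.16 (limma adjusted p = 0.0103), a call lost without loss of function replicate 2 (0.0524) or 3 (0.0671) and without the variance trend (0.0617). HNRNPL, which binds CA repeats, fell by 0.13 (limma adjusted p = 0.0362), and this call was lost under 6 of 16 alternatives, among them the replicate block (limma adjusted p = 0.0792) and the omission of any 1 loss of function library or of control replicate 2.

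The hnRNP genes that rose besides hnrnph1 were HNRNPAB and hnrnpul1. HNRNPAB, which had the highest mean normalized read count of all members (not adjusted for length), encodes an hnRNP of the A, B and D class. Its counts were 59875, 59558 and 56543 in loss of function libraries, against 45804, 48219 and 50731 in controls, 1.22-fold higher without overlap (log2 change 0.28, SE 0.06, limma adjusted p = 0.00109). After quantile normalization its log2 change was 0.07, short of the threshold (limma adjusted p = 0.191). The gene hnrnpul1, the U-like gene of which hnrnpul1l is a copy, had 5346, 5320.0 and 5009 in loss of function libraries, against 4507, 4578 and 4918 in controls (log2 change 0.16, SE 0.05, limma adjusted p = 0.0162). Its call was lost without loss of function replicate 1 (limma adjusted p = 0.091) or replicate 2 (0.0853), after quantile normalization (0.114), and without the variance trend (0.0928).

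The hnRNP A0 genes and hnrnpa1a, which belong to the classic A group that silences exons, did not pass the test. The gene hnrnpa0b had 41863, 40291 and 39354 in loss of function libraries, against 38196, 40166 and 41915 in controls, with overlapping groups (log2 change 0.02, SE 0.06, limma adjusted p = 0.852, 95% interval -0.10 to 0.13). For hnrnpa0a and hnrnpa0l the log2 changes were 0.04 and 0.07, for hnrnpa1a -0.11 and for HNRNPA1L2 0.09. The change of hnrnpa1a passed the test without control replicate 1 (log2 change -0.18, limma adjusted p = 0.00651) and after quantile normalization (-0.26, 0.000802). After quantile normalization hnrnpa0a was called lower (log2 change -0.12, limma adjusted p = 0.0351). The poly-U binder hnrnpc, HNRNPD, hnrnpl2, hnrnpa3, both HNRNPU genes and HNRNPK (ENSDARG00000018914) had changes from -0.02 to 0.14, none past the test, and hnrnpc passed it without control replicate 3 (limma adjusted p = 0.0174).

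**Figure D2:**
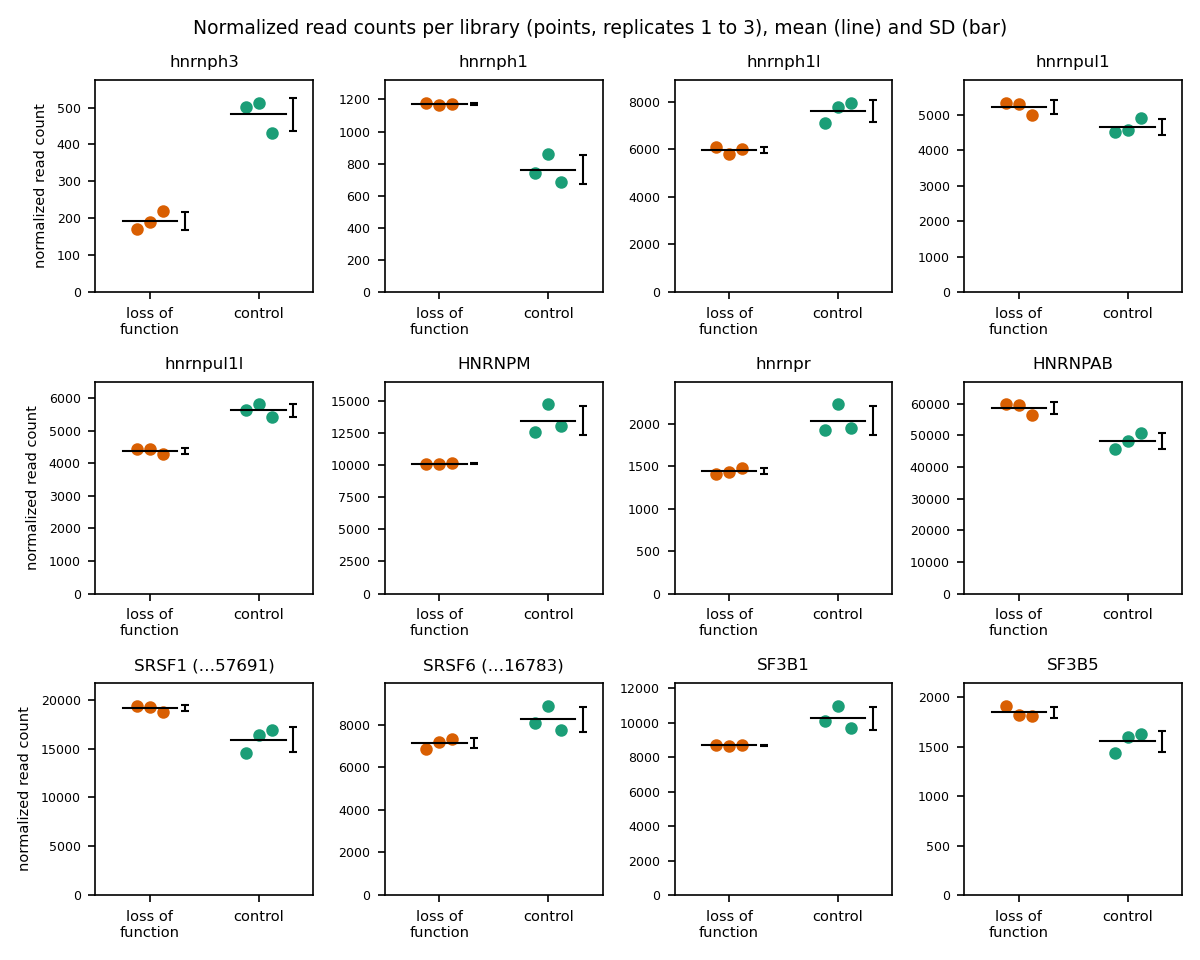
Normalized read counts of 12 named members in each library (points, replicates 1 to 3 from left to right), with the mean (line) and the SD (bar, n = 3), loss of function left of control; each vertical axis starts at 0. The 3 loss of function values of hnrnph3 (171 to 219.6) lie below all controls (431 to 513), and those of hnrnph1 (1163 to 1179.6) above all controls (685 to 862).

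The SF3A and SF3B genes all changed by less than 1.5-fold. Of 7, 3 rose, 1 fell and 3 did not pass the test (median log2 change 0.04). The share called was 57.1%, beside 41.9% of all genes and 60.5% of genes averaging 1000 or more, to which all 7 belonged. The one that fell was SF3B1, the large subunit that clamps the branch site. It had normalized read counts of 8710.2, 8617 and 8694 in loss of function libraries, against 10078, 10975 and 9664 in controls, 1.18-fold lower without overlap (log2 change -0.24, SE 0.05, limma adjusted p = 0.00153). The small subunits SF3B5 and SF3B6 rose. SF3B5 had 1916, 1817 and 1816 in loss of function libraries, against 1433, 1597 and 1632 in controls (log2 change 0.25, SE 0.06, limma adjusted p = 0.00238), and SF3B6, which lies at the branch point adenosine, had 2355, 2209.6 and 2239.8 in loss of function libraries, against 1827, 1955 and 2130.2 in controls (log2 change 0.21, SE 0.06, limma adjusted p = 0.0102). The groups did not overlap for either. The call for SF3B6 was lost without loss of function replicate 1 (limma adjusted p = 0.0699) and without the variance trend (0.0816).

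SF3B4, which contacts RNA upstream of the branch site, had 3266, 2975 and 2619 in loss of function libraries, against 2514, 2496 and 2796 in controls, with overlapping groups (log2 change 0.18, SE 0.07, limma adjusted p = 0.049). It was the single called member whose groups overlapped, and its call was lost under 8 of 16 alternatives, as without loss of function replicate 1 (log2 change 0.10, limma adjusted p = 0.307), loss of function replicate 2 (0.129), control replicate 1 (0.136) or control replicate 2 (0.122). SF3B2 had 5888, 5691 and 5534 in loss of function libraries, against 5871, 5996 and 6526 in controls and did not pass (log2 change -0.10, SE 0.05, limma adjusted p = 0.123), though it was called lower after quantile normalization (-0.18). For SF3A1 and SF3A2 the log2 changes were -0.00 (95% interval -0.11 to 0.10) and 0.04 (-0.09 to 0.16).

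Zebrafish carries extra copies of many genes, some of them from the genome duplication of teleost fish. Members were taken as copies by their symbols alone, and the origin of each pair was not examined. In this way copies of 9 genes, 19 members in all, could be set beside each other in 11 pairs. A ratio between copies within a library does not depend on the size factor. The pair that moved apart the most was hnrnph1 and hnrnph1l, whose log2 ratio was -2.36, -2.32 and -2.36 in loss of function libraries, against -3.25, -3.17 and -3.54 in controls. The difference of their changes was 0.97, with one copy called higher and the other lower. For hnrnpul1 over hnrnpul1l the log2 ratio was 0.27, 0.26 and 0.22 in loss of function libraries, against -0.32, -0.35 and -0.14 in controls, a difference of 0.52, again with opposite calls. In each of these pairs all loss of function ratios lay above all control ratios. In GRCz12tu hnrnpul1l overlaps lrwd1, which had 607, 629.6 and 656 in loss of function libraries, against 546, 543 and 616 in controls and missed the threshold (log2 change 0.15, SE 0.07, limma adjusted p = 0.102).

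In the other 9 pairs the changes differed by 0.03 to 0.32. For the SRSF6 genes (ENSDARG00000013729 over ENSDARG00000016783) the log2 ratio was 0.50, 0.47 and 0.33 in loss of function libraries, against 0.09, 0.05 and 0.21 in controls, a difference of 0.32. For the HNRNPK genes (ENSDARG00000018914 over ENSDARG00000007034) it was 1.44, 1.51 and 1.35 in loss of function libraries, against 1.18, 1.19 and 1.18 in controls, a difference of 0.25. In 7 of the 11 pairs the ratios of the groups did not overlap, among them srsf5a over SRSF5, the SRSF3 genes and hnrnpa0l over hnrnpa0b. A 2-sided exact permutation test of the ratio gave p = 0.1 for these 7, the smallest p that 3 libraries against 3 allow, and p = 0.157 after adjustment over the 11 pairs, so no pair passes a threshold of 0.05 by that test. The count of 7 in 11 has no background from other gene pairs. For single genes the groups did not overlap in 52.1% of all genes and 69.4% of genes averaging 1000 or more. The 3 hnrnpa0 pairs share genes and are not independent. In GRCz12tu hnrnpa0l and hnrnpa0b overlap each other, and the part of this overlap in their values was not tested. The sources used here do not say how reads shared by near-identical copies were assigned.

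**Figure D3:**
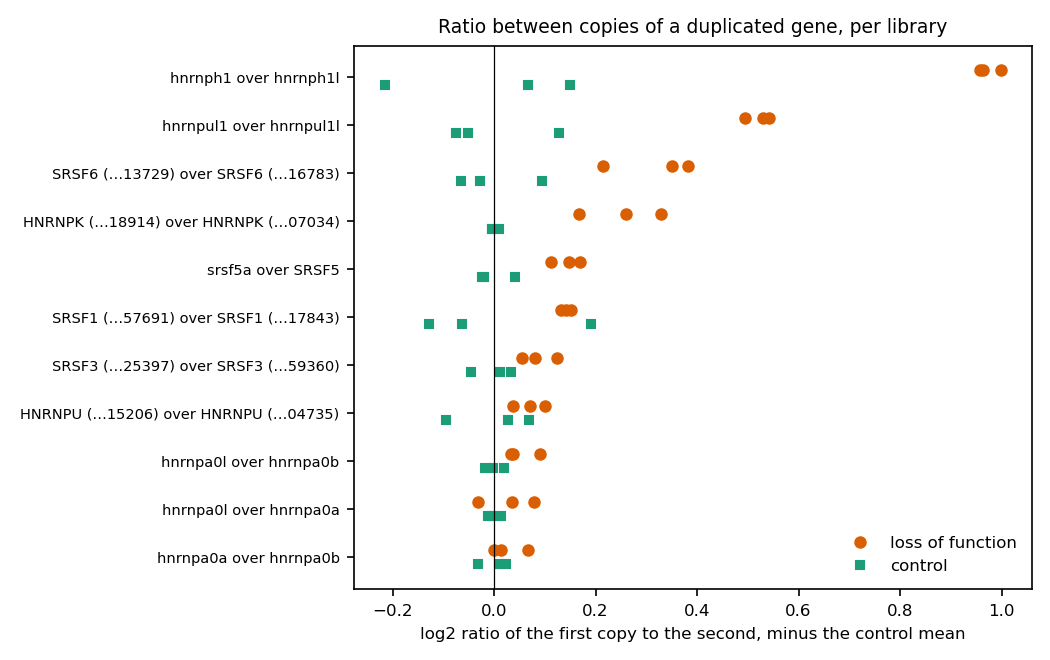
Log2 ratio of the first copy to the second in each of 11 pairs, with the control mean of the pair set to 0; circles are the 3 loss of function libraries and squares the 3 controls. The ratios of hnrnph1 to hnrnph1l and of hnrnpul1 to hnrnpul1l lie 0.97 and 0.52 above the control mean on average, and those of the hnrnpa0 genes lie close to it.

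Added up, the members took a slightly smaller share of the library in loss of function although their summed normalized counts overlapped. The sums were 428235, 423530.0 and 413857 in loss of function replicates 1, 2 and 3, against 395687, 422210.0 and 425338 in controls. As a share of all gene values the members made up 0.959%, 0.966% and 0.957% in loss of function, against 1.02%, 1.05% and 1.04% in controls, without overlap. The sum of all gene values was itself higher in loss of function (43261678 to 44672244) than in controls (38854614 to 40728502). The summed counts averaged 290442 in loss of function and 285648 in controls for hnRNP genes. For SR protein genes they averaged 102087 in loss of function and 98405 in controls. For SF3A and SF3B genes they averaged 29345 in loss of function and 30358 in controls. In each family these sums overlapped between groups. The shares averaged 0.661% ± 0.00345 in loss of function and 0.716% ± 0.0143 in controls for hnRNP genes, 0.232% ± 0.00239 in loss of function and 0.247% ± 0.00554 in controls for SR protein genes, and 0.0668% ± 0.000629 in loss of function and 0.0761% ± 0.000925 in controls for SF3A and SF3B genes (SD, n = 3 each). None of these shares overlapped between groups, and no test was made of them. The ratio of the hnRNP sum to the SR sum was 2.84 ± 0.0237 in loss of function and 2.90 ± 0.0681 in controls (SD, n = 3 each), with overlapping groups. In bulk trunks, a change in the cells present and a change in RNA per cell cannot be told apart.

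Other genes of the splicing and decay pathways, taken from lists made up by function, were counted in the same fit. The lists were chosen with earlier results of these data known. Of 142 found, 140 passed the filter, and of these 43 rose and 42 fell. This was 60.7% called, beside 41.9% of all genes and 60.5% of genes averaging 1000 or more. The total called lies near the share of abundant genes and is not a result about the lists together. The balance of higher and lower calls differed from list to list. All 13 measured genes of the Sm and LSm rings, which form the core of the small nuclear ribonucleoproteins, rose (median log2 change 0.33, range 0.15 to 0.42), beside 21.9% of all genes. All 13 had means over 1000, and of genes at that level 39.7% were called higher, with a median log2 change of 0.08. SNRPD2 had 6795, 6413 and 6843 in loss of function libraries, against 4718, 5069 and 5711 in controls (log2 change 0.38, SE 0.06, limma adjusted p = 1.19e-04), and LSM8, part of the ring that binds U6 RNA, had 1799, 1793 and 1899 in loss of function libraries, against 1207, 1358 and 1563 in controls (log2 change 0.42, SE 0.07, limma adjusted p = 2.49e-04). The smallest of these rises was that of SNRPB (0.15). Between 8 and 13 of the 13 were called higher under 16 alternatives and none lower, with 8 when the variance trend was left out. The groups did not overlap for 12 of the 13 (92.3%, beside 52.1% of all genes and 69.4% of genes averaging 1000 or more).

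Genes of the tri-snRNP and the PRPF19 complex, which build and activate the spliceosome, gave 17 of 30 higher and 1 lower, prpf38b (-0.34), with a median of 0.17. This was 56.7% higher and 3.33% lower, beside 21.9% and 20.0% of all genes and 39.7% and 20.7% of genes averaging 1000 or more. AQR, an intron-binding helicase, had 3624, 3652 and 3513 in loss of function libraries, against 2344, 2656 and 2826 in controls (log2 change 0.47, SE 0.06, limma adjusted p = 1.45e-05). The large tri-snRNP genes PRPF8 (log2 change -0.00, limma adjusted p = 0.959) and SNRNP200 (-0.01, 0.86) missed the threshold. The number called higher was 10 to 18 under the alternatives, 11 without loss of function replicate 1 and 11 without loss of function replicate 3. Partners of the U1 and U2 particles gave 4 of 20 higher and 4 lower (20.0% each, median -0.01), beside 21.9% and 20.0% of all genes. All 20 had means over 1000, and of genes at that level 39.7% rose and 20.7% fell. U2AF1, which reads the 3′ splice site, was higher (0.30) and LUC7L, a U1 partner, lower (-0.58). After quantile normalization 8 of the 20 were called lower.

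Genes of proteins that share the arginine and serine rich domain without being classic SR proteins mostly fell. Of 26 tested, 19 fell (73.1%, beside 20.0% of all genes), 1, rsrc1 (0.28), rose and 6 missed the threshold (median log2 change -0.33). PNISR, which encodes a nuclear speckle protein, had 1571, 1818 and 1733 in loss of function libraries, against 3365, 3677 and 3062 in controls, 1.97-fold lower (log2 change -0.98, SE 0.07, limma adjusted p = 1.69e-08). PNN, which binds the exon junction complex, had 2833, 2817 and 2709 in loss of function libraries, against 4381, 4624 and 4398 in controls, 1.60-fold lower (log2 change -0.68, SE 0.05, limma adjusted p = 2.40e-08). RBM39 fell by 0.60 and TRA2B, an activator of exons in nerve and muscle, by 0.34 on the log2 scale. Under the alternatives 17 to 20 of these genes were called lower.

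A list of SR protein kinases and nuclear importers gave 7 of 14 lower (50.0%, beside 20.0% of all genes) and 1 higher (7.14%, beside 21.9%), with a median of -0.15. Its importers were not limited to those of SR proteins. TNPO1 (-0.49) was among the 7 lower, with overlapping groups, and tnpo2a (0.25) was the 1 higher. The CDC-like kinase gene clk4a, whose product phosphorylates SR proteins in the nucleus, had 1507, 1587 and 1668 in loss of function libraries, against 2817, 3237 and 2583 in controls, 1.81-fold lower (log2 change -0.85, SE 0.07, limma adjusted p = 1.06e-07). CLK2 (ENSDARG00000062954) had 2195, 2259 and 2366 in loss of function libraries, against 3796, 4656 and 3569 in controls (log2 change -0.81, SE 0.07, limma adjusted p = 3.86e-07). The other CLK2 gene (ENSDARG00000059870) had overlapping groups and did not pass the test (log2 change -0.05, SE 0.06, limma adjusted p = 0.59). SRPK3, a muscle kinase of SR proteins in mammals, fell by 0.36, while srpk1a (0.00) did not pass the test. The groups did not overlap for 7 of the 14 (50.0%, beside 52.1% of all genes and 69.4% of genes averaging 1000 or more), among them clk4a, CLK2 (ENSDARG00000062954) and SRPK3.

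RNA binders often counted with the hnRNPs but named otherwise gave 5 of 27 higher (18.5%, beside 21.9% of all genes) and 7 lower (25.9%, beside 20.0%), with a median of -0.00. EWSR1 (-0.43) fell and SYNCRIP, which is closely related to hnrnpr, rose (0.34), as did RALY (0.52). Without control replicate 3, 10 were called higher, without loss of function replicate 1 or 2 or control replicate 1, 3, and after quantile normalization 2 higher and 11 lower. Without loss of function replicate 2 or 3, 4 were called lower. Of 10 genes of nonsense-mediated decay, the pathway that degrades SR transcripts spliced with a poison exon, 2 rose and 4 fell (20.0% and 40.0%, beside 21.9% and 20.0% of all genes), among them the helicase UPF1 (0.36), which rose, and upf3a (-0.64), which fell; without control replicate 3, 4 rose. Gene counts do not show which isoform was made, and no exon could be paired with its gene here.

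**Figure D4:**
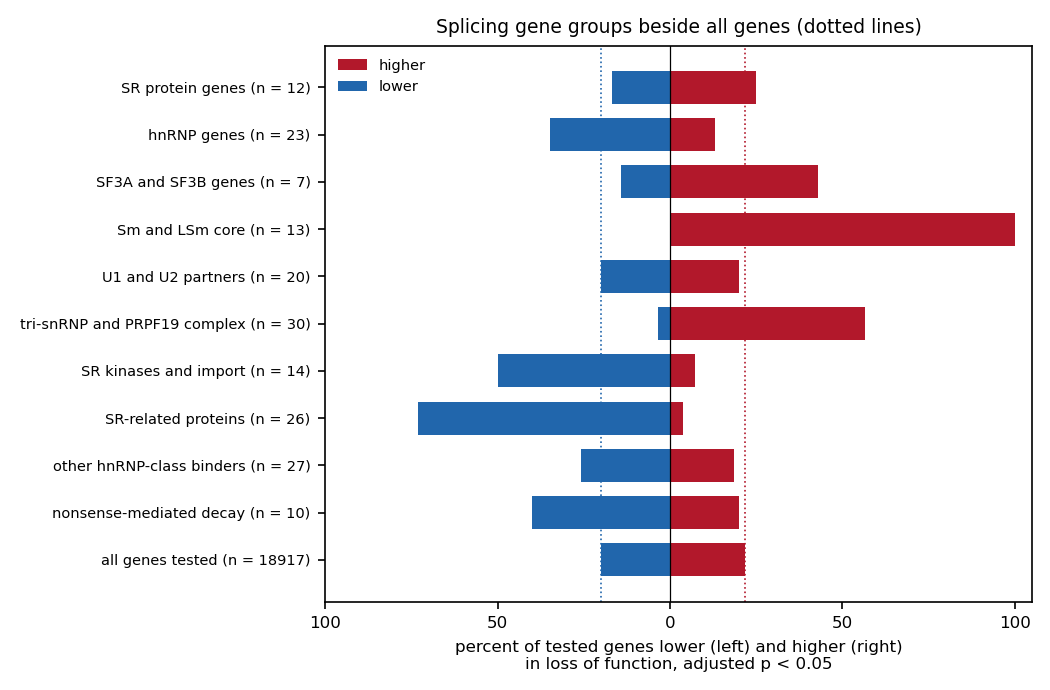
Percent of tested genes called lower (left of 0) and higher (right of 0) in loss of function at a limma adjusted p under 0.05, for the 3 member families, 7 other lists and all genes tested; dotted lines mark the values of all genes. All 13 Sm and LSm genes were higher and 19 of 26 SR-related genes were lower, while the 12 SR protein genes stayed near the values of all genes. These 12 averaged 1000 or more, and of genes at that level 39.7% were called higher and 20.7% lower.

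Genes of the marker lists also changed in this comparison, in which 21.9% of all genes were called higher and 20.0% lower. Of 7 spinal cord and neuron markers 5 fell and none rose, and their summed share was 0.0554% to 0.0574% in loss of function and 0.0678% to 0.0745% in controls. All 5 red blood cell markers rose, with a summed share of 0.0227% to 0.0238% in loss of function and 0.00331% to 0.00848% in controls. Of 9 genes of dividing cells 4 rose and 1, TOP2A (-0.33), fell, with a summed share of 0.177% to 0.178% in loss of function and 0.175% to 0.182% in controls. The summed share was 0.253% to 0.255% in loss of function and 0.207% to 0.230% in controls for notochord genes, 2.00% to 2.05% in loss of function and 1.82% to 2.03% in controls for skin genes, and 0.00530% to 0.00584% in loss of function and 0.00499% to 0.00524% in controls for yolk and liver genes. Of 8 skeletal muscle genes 2 rose and 4 fell, with log2 changes from -1.02 (myhz2) to 0.37 (MYOG). Their summed share does not show these changes in both directions. Of 6 notochord genes 3 rose and 1 fell (0 fell without loss of function replicate 3), and of 5 yolk and liver genes 2 rose. Of 5 skin genes 0 passed the limma test, 1 had an unadjusted p under 0.05, and 1 passed with edgeR and with DESeq2. Of 9 head, brain and eye genes 6 passed the filter, 2 of those fell and none rose, and 1 of the 9 was at 0 in at least 1 library, the only marker with a 0. The part of these tissues in the changes of the splicing factor genes was not tested.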

How the data were processed

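Poly(A) RNA from 0.7 µg of total RNA was made into libraries that do not keep the strand and read at 50 bp, per the labels. The deposited values are a normalized signal, each gene's read count over a size factor common to its library, as the values themselves show: 100% were whole multiples of 1 read within a tolerance of 0.001. The submitters' processing notes name DESeq 1.8.3, HTSeq 0.5.3, SAMtools, STAR 2.4.0j, Bowtie 0.12.9 and the build Zv9, without roles. The reads recovered exceed the mean the labels give per sample, and the cause was not tested.

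Genes that reached 10 in 3 or more of the 6 libraries were tested with limma 3.58.1 in R 4.3.3 (eBayes with trend, pseudocount 1), which understates changes of low genes. P-values are 2-sided. Those of limma set the group difference against a variance pooled over both groups and drawn towards an abundance trend over all genes. They rest on the spread between these libraries, which was larger in controls. The series states that the libraries are biological replicates, but not whether they came from separate clutches. edgeR 4.0.16 and DESeq2 1.42.0 on recovered reads were alternatives. Tests were tried on simulated data. Same-numbered libraries did not deviate together (r = -0.07, 0.01 and -0.02), so the numbers were not taken as pairs.

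Named genes were up to 4 members per direction and family with the smallest adjusted p, the 2 with the highest mean, copies that moved apart and changes of 2-fold or more. Other list genes are examples. Members and lists were chosen with earlier results of these data known. List genes were matched by symbol, or after a final a or b. Overlaps came from RefSeq names in GRCz12tu for 29 members, 9 of which overlap another gene. Exon tables, protein sequences and planned protein features were not used here.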

Additional observations from a re-analysis of the deposited data

How the results depend on the processing

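Of the 20 members called, 9 were called in the same direction under all 16 alternatives: hnrnph3, hnrnph1, hnrnph1l, hnrnpr, HNRNPM, hnrnpul1l, HNRNPK (ENSDARG00000007034), SF3B1 and SF3B5. The other 11 lost the call under at least 1 alternative, and 9 of the 22 members not called were called under at least 1. Quantile normalization gave 4 members higher and 18 lower, with 1 and 5 SR protein genes, 1 hnRNP gene higher, and 2 SF3 genes lower. Under it srsf5a (log2 change -0.11) and hnrnpa0a (-0.12) were called lower, the reverse of their sign without it. Fitting without the variance trend gave 4 members higher and 7 lower, 1 SR protein gene higher and 0 lower, and 1 SF3 gene higher. With the trend left out, 0 SR protein genes lower compares with 2 by limma with the trend, 2 by edgeR and 2 by DESeq2, and at an unadjusted p under 0.05 there were 2. The causes were not tested. Leaving out 1 library gave 5 to 10 members higher, 1 to 2 SR protein genes lower and 1 to 3 SF3 genes higher. With the replicate number as a block, 9 members were higher and 10 lower, among 4055 genes higher and 3759 lower in all; HNRNPL lost its call. Library numbers share no stated origin. Genes with a mean of at least 1000 were taken as a background after seeing the data. Only hnrnph3, hnrnph1 and hnrnpa3 had means under 1000. The interval was widest for hnrnph3 among all members and for hnrnpa3 among the 22 not called.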
